A study of Mus musculus with 8 samples.

Results

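Genes named for the sinusoidal endothelium of the liver were described in bulk RNA from liver, lung, kidney and small intestine of the mouse. The 10 genes were Stab1, Stab2, Lyve1, Clec4g, Fcgr2b, Oit3, Dnase1l3, Gpr182, Mrc1 and Flt4, chosen by symbol from the 52195 genes of the deposited table. Each tissue had 2 libraries, 8 in all, made from polyadenylated RNA of whole tissue of C57BL/6 mice aged 6 to 10 weeks, and the study used these tissues as mixtures of cell types whose proportions a computation was to estimate. By the study's methods the mice were male C57BL/6J, 4 tissues were taken from each, and the replicates came from separate mice, but the labels do not tie a replicate number to a mouse. Because the RNA is of whole tissue, fewer cells of a type and less RNA per cell cannot be told apart in any value below.

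The sinusoids of the liver are lined by flattened endothelial cells with open pores and no continuous basement membrane. These cells are known as scavengers: they take up hyaluronan, denatured collagen, immune complexes and glycoproteins from the blood through stabilins, lectins, Fc receptors and the mannose receptor. Several of the same receptors are also known from the endothelium of lymphatic vessels, from macrophages or from B cells, and the question put to these data was which of the 10 genes were high in liver alone and which were shared with other vascular beds. Stab2, Clec4g and Oit3 are known mainly from the sinusoid, and Dnase1l3 from dendritic cells and macrophages besides. Stab1, Lyve1, Fcgr2b, Gpr182, Mrc1 and Flt4 are known from lymphatic vessels, macrophages or B cells as well.

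The libraries held between 9164039 and 21444410 reads on genes, recovered from the steps of the deposited FPKM values (reads per kilobase of exon, scaled to the depth of the library). Each tissue was highest in its own genes: the sum of Alb, Ttr and Apoa2 was at least 41277 FPKM in the liver libraries and at most 149 FPKM elsewhere, and the sum of Sftpc, Sftpb and Scgb1a1 was at least 59258 FPKM in the lung libraries and at most 77.9 FPKM elsewhere. The corresponding sums for kidney (Umod, Slc34a1 and Aqp2) and small intestine (Fabp2, Vil1 and Lct) were at least 1329 and 4980 FPKM in their own tissue and at most 6.46 and 56.2 FPKM elsewhere. Deposited values were higher in lung than in liver for most genes, with a median difference of -1.13 in log2(FPKM + 1) over the 16328 genes tested, so each difference below is read against that median. A difference was called where its p-value from limma, adjusted over all genes tested, was under 0.05 and its size was over 1 in log2(FPKM + 1). As a second scale, each library was divided by the median of its ratios to the geometric mean profile (median-of-ratios scaling), which brought the median difference between liver and lung to -0.06.

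The promoters of 6 of the 10 genes were in the RefSeq table (GRCm38.p6). Lyve1, Oit3, Dnase1l3 and Gpr182 were not. The 3 below are shown because their genes carry the contrast described below: Stab2 and Clec4g were high in liver, and Stab1, the paralog of Stab2, was highest in lung. Each line gives the 250 bases before the RefSeq start of the gene, 5′ to 3′ on the minus strand, at chr10:87007943-87008192 for Stab2, chr8:3720652-3720901 for Clec4g and chr14:31168642-31168891 for Stab1. Capitals mark letters of GATA factors (AGATAA or AGATAG or TGATAA or TGATAG) or of ETS factors (ACCGGAA or GCCGGAA or ACAGGAA or GCAGGAA), searched on both strands. The gene spans given below are those of GENCODE, whose first base can lie elsewhere, so 83 bases of the Stab2 window fall inside the GENCODE gene.
Stab2: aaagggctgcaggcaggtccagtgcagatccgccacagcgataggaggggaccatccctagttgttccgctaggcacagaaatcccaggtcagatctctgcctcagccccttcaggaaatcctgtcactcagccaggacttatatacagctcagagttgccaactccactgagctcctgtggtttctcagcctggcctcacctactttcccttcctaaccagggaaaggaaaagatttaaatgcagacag
Clec4g: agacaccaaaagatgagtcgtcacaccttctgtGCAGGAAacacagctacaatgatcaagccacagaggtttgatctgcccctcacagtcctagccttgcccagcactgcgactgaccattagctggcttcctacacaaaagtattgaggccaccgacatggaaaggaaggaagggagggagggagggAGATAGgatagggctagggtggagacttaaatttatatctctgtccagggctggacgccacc
Stab1: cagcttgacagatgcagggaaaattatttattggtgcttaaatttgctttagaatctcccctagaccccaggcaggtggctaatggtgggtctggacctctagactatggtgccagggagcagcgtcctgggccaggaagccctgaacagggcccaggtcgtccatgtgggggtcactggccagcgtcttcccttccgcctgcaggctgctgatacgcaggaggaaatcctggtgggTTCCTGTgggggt
GATA letters stood in 1 of the 6 promoters, that of Clec4g, 62 to 57 bases before the start, and in 26.5% of all 32851 promoters of this length. ETS letters stood in 3 of the 6, those of Clec4g, Stab1 and Mrc1, and in 19.3% of all promoters. The Stab1 match lay 13 to 7 bases before the start, on the opposite strand. The Stab2 window held neither set of letters, nor did those of Fcgr2b and Flt4, both of which lie wholly inside the GENCODE gene. A match is a run of letters only and says nothing of binding.

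Liver alone held high levels of Stab2, Clec4g and Oit3, and Dnase1l3 was highest in liver with a second level in small intestine. The other 6 genes were highest in lung by the deposited values. Of the summed means of the 4 tissues, liver made up 97.6% for Clec4g, 91.5% for Oit3, 82.0% for Stab2 and 54.1% for Dnase1l3, but 32.7% for Mrc1, 30.0% for Gpr182, 28.5% for Fcgr2b, 16.6% for Flt4, 16.3% for Stab1 and 2.0% for Lyve1. Lung made up between 39.2% (Fcgr2b) and 95.2% (Lyve1) for those 6.

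**Figure D1:**
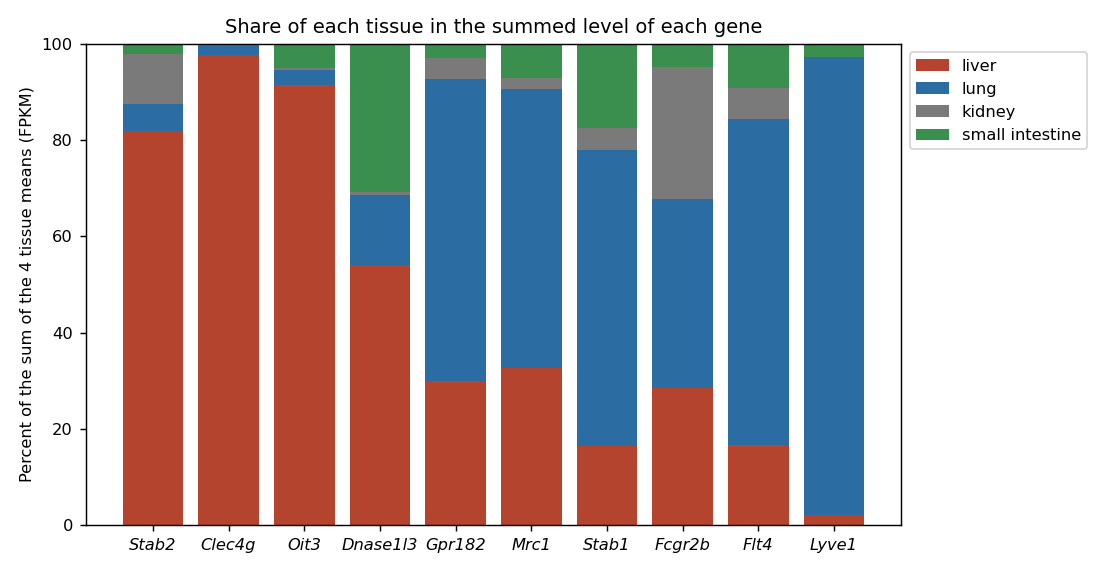
The bars show, for each gene on the x axis, the percent of the sum of the 4 tissue means (FPKM, 2 libraries per tissue) that fell to each tissue. Liver held 97.6% for Clec4g and 2.0% for Lyve1, and lung held the largest share for 6 of the 10 genes.

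Among the scavenger receptors, the stabilins are a pair of large paralogous receptors that bind hyaluronan, oxidised lipoproteins and other waste. Stab2 (GRCm38 chr10:86841198-87008025, minus strand) was at 2.98 and 3.80 FPKM in the liver libraries, 0.211 and 0.248 in lung, 0.548 and 0.310 in kidney and 0.0610 and 0.111 in small intestine. Both liver values lay above every other library. Its liver mean was 14.8-fold that of lung and 7.90-fold that of kidney, the next tissue. The lung values rested on 18 and 27 reads and those of small intestine on 5 and 11, against 239 and 344 in liver. Kidney, lung and small intestine did not overlap, in that order, but none of their pairs was called. Kidney against small intestine (0.39) was called with a pseudocount of 0.1 (1.48) and by limma-voom on the recovered reads, without and with median-of-ratios scaling (2.25 and 2.59), and lung against kidney (-0.21) by voom with median-of-ratios (-1.96), so whether these pairs were called rests on the setting. Lung minus small intestine was 0.18 as deposited, -0.07 by quantile normalization and -0.34 on the scale of 12 endothelial genes described below, not called in any of these. The liver to lung difference of Stab2 was 1.83 (SE 0.15, limma) in log2(FPKM + 1). Stab2 passed the filter on low values, an FPKM of 1 in 2 libraries, through liver alone, which fixed the direction, so the difference is given as a description.

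Stab1 (chr14:31139013-31168641, minus strand), known from sinusoids, lymphatic endothelium and macrophages, gave another picture. Its levels were 2.47 and 2.01 FPKM in liver, 8.12 and 8.80 in lung, 0.997 and 0.298 in kidney and 2.42 and 2.36 in small intestine. Both lung libraries were above all others, liver and small intestine overlapped, and kidney was lowest. By limma with Benjamini-Hochberg adjustment it was lower in liver than in lung, with a difference of -1.55 (SE 0.23) in log2(FPKM + 1) (adjusted p = 0.000478), a difference close to the median of all genes, and after median-of-ratios scaling the difference was -0.21 and not called. Liver and small intestine differed by -0.07 (adjusted p = 0.835 in limma). The ratio of Stab1 to Stab2, both in FPKM, was 0.830 and 0.530 in the liver libraries, 38.6 and 35.5 in lung, 1.82 and 0.960 in kidney and 39.7 and 21.3 in small intestine. Liver thus held more Stab2 than Stab1 per length in both libraries, and lung and small intestine held far more Stab1, a contrast that no scaling of a library can alter.

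**Figure D2:**
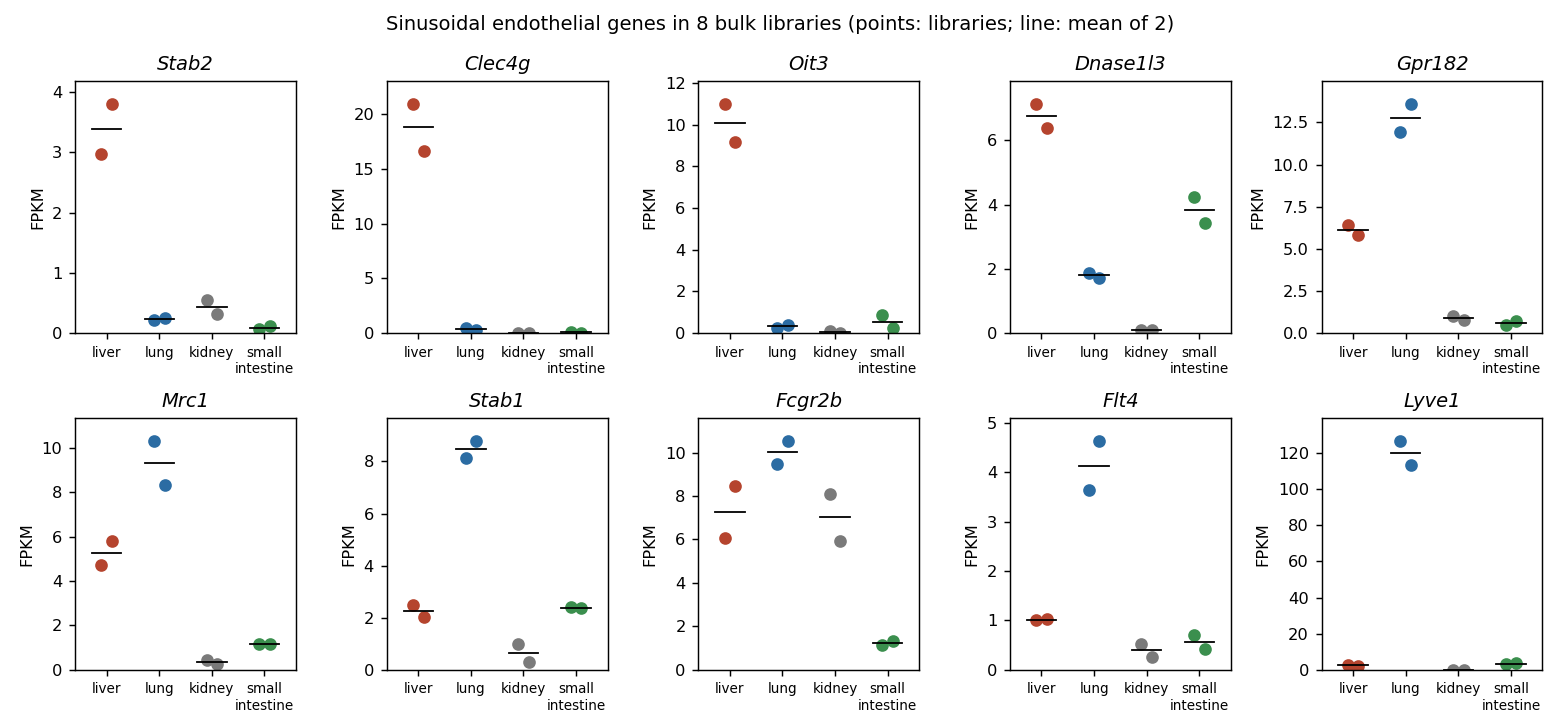
Each panel plots 1 gene, with FPKM from 0 on the y axis, the 4 tissues on the x axis, a point for each library and a line at the mean of 2. Stab2, Clec4g, Oit3 and Dnase1l3 had both liver points above all others, and the other 6 genes had both lung points above all others.

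The lectins split in the same way. Clec4g (chr8:3707064-3720651, minus strand), a C-type lectin also called LSECtin, was at 20.9 and 16.6 FPKM in liver and 0.458 and 0.294 in lung, which rested on 11 and 9 reads. In kidney it had 0 and 2 reads and in small intestine 2 and 1, all under the 3 reads taken as the limit of detection. It had the highest liver level of the 10 genes on the FPKM scale. The liver mean was 49.97-fold that of lung, and the difference in log2(FPKM + 1) was 3.84 (SE 0.17, limma), a description, since Clec4g too passed the filter through liver alone.

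Mrc1 (chr2:14229392-14332057, plus strand), the mannose receptor CD206 of sinusoidal cells and many macrophages, was at 4.71 and 5.81 FPKM in liver, 10.3 and 8.34 in lung, 0.454 and 0.254 in kidney and 1.17 and 1.14 in small intestine. Lung and liver did not overlap, and both lay above kidney and small intestine. The difference between liver and lung, -0.72 (SE 0.19) in log2(FPKM + 1), had an adjusted p of 0.00908 in limma but was under the 1 log2 unit required for a call, and it turned to 0.72 after median-of-ratios scaling, also not called. Liver was higher than kidney by 2.21 and than small intestine by 1.53 (limma, adjusted p = 7.23e-05 and 0.000347).

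Lyve1 (chr7:110850607-110863239, minus strand), a hyaluronan receptor that marks lymphatic vessels, sinusoids and some macrophages, was a lung gene in these libraries. It was at 127 and 114 FPKM in lung, 2.93 and 3.84 in small intestine, 2.73 and 2.32 in liver and 0.128 and 0.119 in kidney. The lung mean was 47.6-fold that of liver. Liver was lower than lung, with a difference of -5.10 (SE 0.18) in log2(FPKM + 1) (limma, adjusted p = 3.88e-07) and of -3.63 after median-of-ratios scaling. Liver and small intestine did not overlap, but their difference of -0.31 had an adjusted p of 0.171 in limma. Kidney was at 8 and 6 reads, the lowest tissue, and lower than both liver and small intestine.

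Fcgr2b (chr1:170958617-170976547, minus strand) encodes the inhibitory Fc receptor for IgG of sinusoidal cells, B cells and macrophages. It was the most even of the 10 over liver, lung and kidney. Its levels were 6.09 and 8.48 FPKM in liver, 9.48 and 10.5 in lung, 8.11 and 5.95 in kidney and 1.13 and 1.33 in small intestine. Liver and kidney overlapped, and their difference was 0.04 (SE 0.21) in log2(FPKM + 1), with an adjusted p of 0.918 in limma. Liver against lung gave -0.42 (adjusted p = 0.102), which turned to 1.05 and was called after median-of-ratios scaling. Small intestine was lower than each of the other 3 tissues. Of the 31-base stretches in Fcgr2b exons, 4.15% also stand in the exons of Fcgr3, the neighbouring activating receptor, and the ratio of Fcgr2b to Fcgr3 ran from 0.151 in 1 small intestine library to 5.49 in 1 kidney library, with liver at 1.36 and 1.65 and lung at 0.414 and 0.554. The inhibitory receptor was thus above Fcgr3 per length in liver and kidney, and below it in lung and small intestine.

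The genes of the secreted or surface proteins Oit3 and Dnase1l3 were, like Stab2 and Clec4g, highest in liver, but Dnase1l3 had a second level in small intestine. Oit3 (chr10:59422958-59441778, minus strand), a zona pellucida domain protein, was at 11.0 and 9.17 FPKM in liver, 0.257 and 0.404 in lung, 0.117 and 0 in kidney and 0.843 and 0.253 in small intestine. Its liver mean was 30.5-fold that of lung and 18.4-fold that of small intestine. The difference from lung was 3.06 (SE 0.21, limma) in log2(FPKM + 1), a description as for Stab2 and Clec4g, because Oit3 passed the filter through liver alone. Dnase1l3 (chr14:7964533-7994573, minus strand), a secreted DNase that digests chromatin of dead cells and is also known from dendritic cells and macrophages, was at 7.14 and 6.37 FPKM in liver, 4.25 and 3.43 in small intestine, 1.87 and 1.72 in lung and 0.0905 and 0.0897 in kidney. The 4 tissues did not overlap. Liver was 1.76-fold small intestine, a difference of 0.68 in log2(FPKM + 1) that had an adjusted p of 0.0112 in limma and was under the 1 log2 unit required, whereas liver was higher than lung by 1.47 (SE 0.17, adjusted p = 0.000126). Lung and small intestine, next to each other in this order, were not called apart (-0.79), but small intestine was called higher than lung with a pseudocount of 0.1 (-1.05 for lung minus small intestine), by median-of-ratios (-1.21), by quantile normalization (-1.39), on the scale of 12 endothelial genes described below (-3.49) and by both voom fits (-1.09 and -1.87). Kidney was lower than both.

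Gpr182, a receptor that takes up chemokines, and Flt4, the VEGF-C receptor VEGFR3, are the signalling receptors of the group, and both are also known from lymphatic endothelium. Gpr182 (chr10:127747276-127751732, minus strand) was at 6.40 and 5.81 FPKM in liver, 11.9 and 13.6 in lung, 1.03 and 0.745 in kidney and 0.459 and 0.692 in small intestine. Flt4 (chr11:49609263-49652739, plus strand) was at 1.01 and 1.02 FPKM in liver, 3.63 and 4.64 in lung, 0.521 and 0.260 in kidney and 0.701 and 0.429 in small intestine. For both genes lung was highest and liver next, with no overlap between them. Gpr182 was higher in liver than in kidney by 1.92 and than in small intestine by 2.18 in log2(FPKM + 1) (limma, adjusted p = 0.000122 and 3.82e-05). Its difference from lung, -0.95 (adjusted p = 0.00177), was just under the call and turned to 0.53 after median-of-ratios scaling, not called. It passed as lower without liver replicate 1 (-1.01) or lung replicate 1 (-1.04), with a pseudocount of 0.1 (-1.05) and with limma-voom on the recovered reads (-1.07). Flt4 was lower in liver than in lung, at -1.34 (SE 0.18, adjusted p = 0.000250 in limma), which shrank to -0.24 and was not called after that scaling. Its liver level was not called different from kidney (0.54) or small intestine (0.37).

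Over the whole group, 4 genes were called higher in liver than in lung (Stab2, Clec4g, Oit3 and Dnase1l3) and 3 lower (Stab1, Lyve1 and Flt4), where 7.21% of all genes tested were called higher and 55.5% lower. Of the 4 called higher, Stab2, Clec4g and Oit3 had passed the filter through the liver libraries alone and so had to differ, and the count is no support. That holds for these 3 genes in every count of genes higher in liver given below, which are descriptions. The share called lower was below the background. After median-of-ratios scaling, 5 were called higher (Fcgr2b joined) and 1 lower (Lyve1), against 17.9% and 19.4% of all genes. With a pseudocount of 0.1 and with limma-voom on the recovered reads, 4 were called higher and 4 lower (Gpr182 joined), where 8.05% and 7.98% of all genes were higher and 65.4% and 64.8% lower. The median difference over the 10 genes was -0.57 as deposited, beside -1.13 over all genes.

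**Figure D3:**
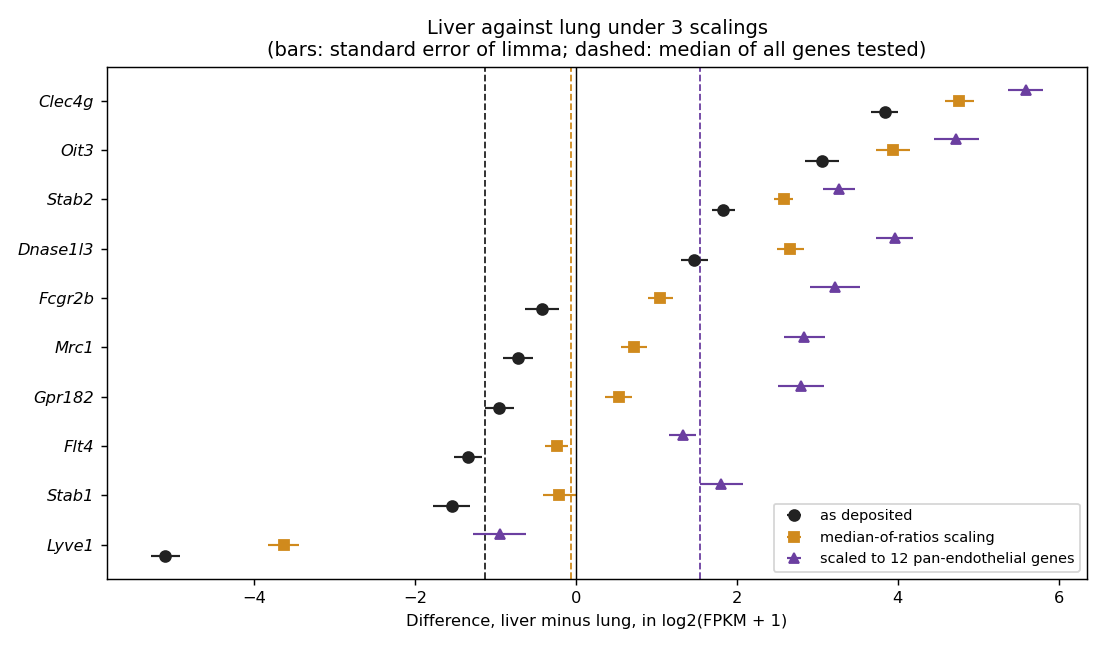
Differences between liver and lung in log2(FPKM + 1) are shown on the x axis for each gene under 3 scalings, with the standard error of limma as bars and the median of all genes tested as dashed lines. Clec4g, Oit3, Stab2 and Dnase1l3 lay right of 0 under all 3 and Lyve1 left of 0 under all 3, while Fcgr2b, Mrc1, Gpr182, Flt4 and Stab1 changed sides.

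Against the mean of the other 3 tissues, 6 genes were called higher in liver (background 6.56%) and Lyve1 alone lower (background 32.7%). Besides the 4 named, Gpr182 (1.05, SE 0.15) and Mrc1 (1.01, SE 0.16) were just past 1 log2 unit. These 2 calls were lost without single libraries: that of Gpr182 without liver replicate 1 (0.99), and that of Mrc1 without liver replicate 2 (0.88), lung replicate 2 (0.96) or kidney replicate 2 (0.97). Lyve1, lower in this comparison, was higher in liver than in kidney by 1.65. Both liver libraries lay above the other 6 for 4 of the 10 genes (background 5.76%), and for 7 after median-of-ratios scaling (background 15.5%), when Fcgr2b, Gpr182 and Mrc1 joined. With libraries scaled to a list of 12 endothelial genes, described below, it held for 8 (background 9.60%). The calls against the other tissues came to 7 higher and none lower by median-of-ratios scaling (background 12.3% and 13.9%), and to 8 higher and none lower by the endothelial scale (background 18.7% and 12.5%). An exact two-sided permutation test over the 28 ways to choose 2 of 8 libraries cannot go below p = 0.0357. It gave that value for Stab2, Clec4g and Oit3, whose order the filter had fixed, so it is no support for them. For Dnase1l3 the exact permutation p was 0.0714. The same test gave 0.429 for Gpr182 and Mrc1 and at least 0.679 for the other 4.

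Liver stood above kidney for 8 of the 10 genes (background 6.90% called higher), all but Fcgr2b and Flt4. The call of Stab1 in this comparison, 1.01, was lost without liver replicate 1 (0.91) or kidney replicate 2 (0.70). Liver stood above small intestine for 6 (background 7.89%), and Stab1, Lyve1, Dnase1l3 and Flt4 were not called. None of the 10 was called lower in liver than in kidney or small intestine in limma, where 16.2% and 28.3% of all genes were. At an unadjusted p under 0.05 none was lower either, nor with limma-voom on the recovered reads.

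The same 6 genes that were highest in lung were called higher in lung than in the mean of kidney and small intestine: Lyve1 by 5.77, Gpr182 by 2.999, Mrc1 by 2.59, Stab1 by 2.02, Flt4 by 1.80 and Fcgr2b by 1.39 in log2(FPKM + 1). In this comparison 33.5% of all genes were called higher, with a median of 0.68. The 4 others, Stab2 (-0.02), Clec4g (0.40), Oit3 (0.07) and Dnase1l3 (0.28), were not called, and none of the 10 was called lower, also at an unadjusted p under 0.05 and with limma-voom, where 8.95% of all genes were by the deposited values. Clec4g and Dnase1l3 were called higher in lung with a pseudocount of 0.1 (1.75 and 1.13) and with limma-voom on the recovered reads (3.19 and 1.58), which brought the count to 8, but the share of all genes called higher rose as well, to 45.0% and 46.6% (11.0% and 10.1% lower), and Clec4g was under 3 reads in kidney and small intestine, where its difference depends on the pseudocount. Other settings lowered the count: to 5 by median-of-ratios scaling, where Fcgr2b (0.54) was not called (background 14.3% higher and 15.2% lower), and to 4 by quantile normalization, where neither Fcgr2b (0.64) nor Flt4 (0.95) was (background 15.1% and 15.2%). Both lung libraries lay above the other 6 for those 6 genes, but also for 51.4% of all genes. After median-of-ratios scaling this held for Lyve1 and Flt4, against 22.1% of all genes.

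Lung also held far more RNA of general endothelial genes, which does not tell more endothelial cells from more of these RNAs per cell. A list of 12 genes of endothelial cells in general, among them Pecam1 and Cdh5, summed to 724 and 878 FPKM in the lung libraries, 37.8 and 35.0 in liver, 68.5 and 40.5 in kidney and 30.1 and 20.2 in small intestine. All 12 were lower in liver than in lung, with a median of -3.80 in log2(FPKM + 1), and all 12 after median-of-ratios scaling, with a median of -2.55. Of all genes tested, 55.5% and 19.4% were lower on the same scales. The largest differences were those of Pecam1 (-5.00), Cdh5 (-4.79), Egfl7 (-4.68) and Esam (-4.57), whose products sit at endothelial junctions or in the vessel wall. The 8 listed genes of lung capillaries were likewise all lower in liver, led by Tmem100 (-7.61), Car4 (-6.64), Cldn5 (-6.59) and Icam2 (-5.42). Of the 10 sinusoidal genes, Lyve1 alone had a difference of that size.

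Set against those 12 genes, 9 of the 10 were higher in both liver than in both lung libraries, as were 76.7% of all genes tested, so the count is near the background. On the scale of log2(FPKM + 1) minus the mean of the 12 in the same library, Clec4g stood at 2.70 and 2.40 in the liver libraries and at -4.95 and -5.39 in lung. Stab2 stood at 0.24 and 0.52 in liver and at -5.22 and -5.44 in lung. Gpr182, highest in lung as deposited, stood at 1.14 and 1.02 in liver and at -1.80 and -1.89 in lung. The difference between the tissue means on this scale was 7.72 for Clec4g, 6.93 for Oit3, 5.71 for Stab2, 5.35 for Dnase1l3, 3.45 for Fcgr2b, 3.16 for Mrc1, 2.93 for Gpr182, 2.54 for Flt4 and 2.33 for Stab1. Lyve1 went the other way, at -1.23, with 0.15 and -0.01 in liver and 1.505 and 1.08 in lung.

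The 9 genes had a higher ratio in both liver libraries than in both lung libraries with each of the 12 genes as the denominator, which held for 65.2% of all genes. For Lyve1 the ratio was lower in both liver libraries for 9 of 12, and its liver to lung difference ran from -2.32 (against Kdr) to -0.07 (against Pecam1) on the log2 scale. With libraries scaled to the 12 genes, limma called 9 of the 10 higher in liver than in lung and none lower, and 61.3% of all genes were called higher as well and 2.62% lower, with a median of 1.54. Lyve1, at -0.95, had an adjusted p of 0.0271 and missed the 1 log2 unit required, as the 1 gene of the 10 below 0. In lung against kidney and small intestine this scaling left Lyve1 alone higher (background 0.986%) and made Stab1, Fcgr2b and Dnase1l3 lower (background 77.6%). Among endothelial receptors, the ratio of Flt4 to Kdr, the main VEGF-A receptor, was 0.393 and 0.314 in liver, 0.170 and 0.136 in lung, 0.136 and 0.142 in kidney and 0.377 and 0.354 in small intestine, so liver and small intestine stood above lung and kidney.

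Markers of other cells that carry these receptors were read against the same background. Of all genes tested, 55.5% were lower in liver than in lung as deposited and 19.4% after median-of-ratios scaling. Lymphatic genes summed to 281 and 283 FPKM in lung, 9.63 and 14.2 in liver, 10.3 and 8.58 in kidney and 28.6 and 28.4 in small intestine. Most of the lung sum was Ccl21a (199 and 204) and Pdpn (62.7 and 62.4), so it is no measure of lymphatic content. Reln and Foxc2 were too low to be tested. Reln had its highest mean in liver (0.825, lung 0.481) and Foxc2 in kidney (0.678, lung 0.425). Of 6 tested, 5 were lower in liver than in lung, led by Ccl21a (-5.94) and Pdpn (-5.69), which alveolar epithelium is also known to express, with Mmrn1 at -2.22. Prox1, a lymphatic factor that hepatocytes also express, differed the other way (2.30), but it passed the filter through liver alone, which fixed its direction. After median-of-ratios scaling 3 of the 6 were lower. B cell genes, which bear on Fcgr2b, summed to 164 and 257 FPKM in lung, 1.06 and 1.26 in liver, 0.735 and 1.09 in kidney and 19.0 and 16.7 in small intestine, and 5 of 5 were lower in liver than in lung under both scalings. The parts of lymphatic vessels and B cells in the lung levels of Lyve1, Flt4 and Fcgr2b were not tested.

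Macrophage genes were measured because Mrc1, Stab1, Fcgr2b and Lyve1 occur in macrophages. The 8 listed genes shared by tissue macrophages summed to 106 and 107 FPKM in liver, 275 and 223 in lung, 39.3 and 30.8 in kidney and 145 and 110 in small intestine. As deposited 4 of the 8 were lower in liver than in lung, led by Cd68 (-2.44) and Mertk (-1.82), where 55.5% of all genes were lower. After median-of-ratios scaling none of the 8 was lower and 1 was higher (background 19.4% and 17.9%). Genes of Kupffer cells, the liver macrophages of the sinusoid, summed to 94.5 and 95.1 FPKM in liver and at most 2.64 elsewhere. The liver to lung differences were 5.27 for Clec4f, 4.52 for Cd5l and 4.17 for Vsig4, all of which passed the filter through liver alone and so had to differ. Timd4 (0.52) was not called as deposited and was called higher in liver after scaling. Genes of alveolar macrophages summed to 491 and 420 FPKM in lung and at most 7.33 elsewhere, and 4 of 5 were lower in liver under both scalings, led by Chil3 (-7.97) and Ear2 (-5.29). Dendritic cell genes, which bear on Dnase1l3, summed to 34.7 and 42.6 FPKM in lung, 1.41 and 1.66 in liver, 1.40 and 0.723 in kidney and 2.47 and 1.86 in small intestine. Of these 5, all were lower in liver than in lung, and 2 after scaling. All 5, and Chil3 and the B cell genes Ms4a1 and Cd22, passed the filter through lung alone, which fixed their direction, so their calls are descriptions. The parts of macrophages in the levels of Mrc1, Stab1 and Lyve1 and of dendritic cells in those of Dnase1l3 were not tested.

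**Figure D4:**
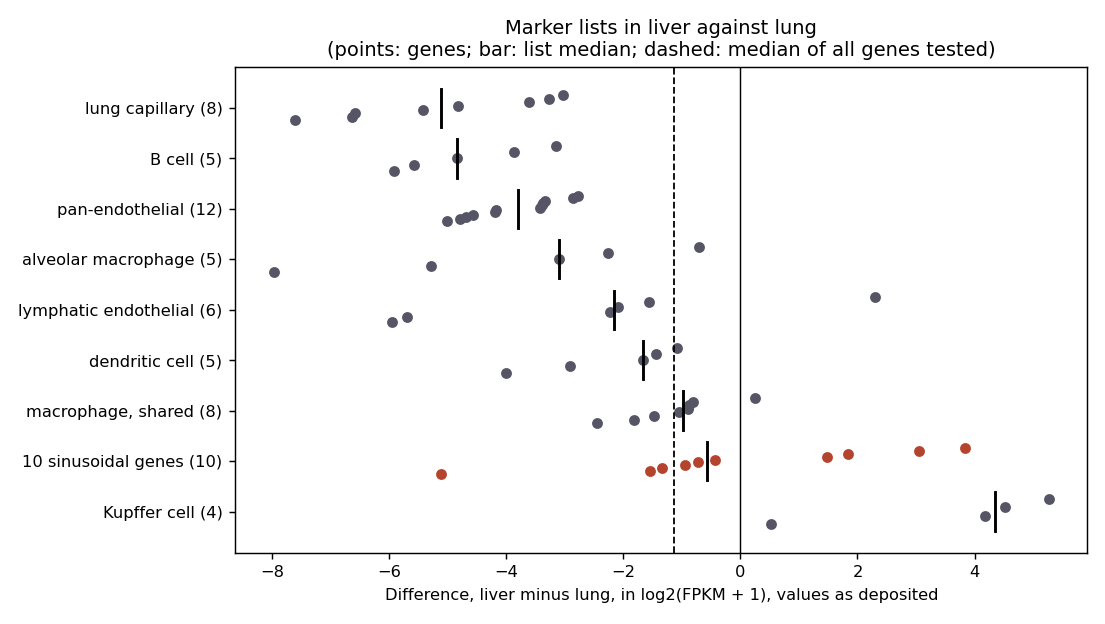
Points show single genes by their difference between liver and lung in log2(FPKM + 1) as deposited, with a bar at each list's median, the number of genes tested in parentheses and a dashed line at the median of all genes (-1.13). The 10 sinusoidal genes spread from -5.10 (Lyve1) to 3.84 (Clec4g), and all 12 pan-endothelial genes lay at -2.77 or below.

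The families to which the genes belong were compared in the same way. In liver against lung, 7.21% of all genes were higher and 55.5% lower as deposited, and 17.9% and 19.4% after median-of-ratios scaling. Against the mean of the other tissues the shares were 6.56% and 32.7%, and 12.3% and 13.9% after scaling. Of 9 scavenger receptors, Stab2 alone was called higher in liver than in lung, and Cd36 (-5.18), Colec12 (-1.89), Scarf1 (-1.65) and Stab1 were lower, with a median of -0.70. After median-of-ratios scaling 4 of the 9 were higher and 1 lower. Against the mean of the other tissues Scarb1 (1.96), the HDL receptor, and Lrp1 (1.26), an endocytic receptor, were higher in liver besides Stab2 and Cd36 (-3.32) was lower, and 6 of the 9 were higher and Cd36 still lower after scaling. Scarb1 and Lrp1 were chosen after their values were seen. Scarb1 was at 15.4 and 14.6 FPKM in liver, 11.4 and 11.5 in lung, and at most 2.27 in kidney and small intestine. In the mannose receptor family, Mrc2 (-3.37), Ly75 (-1.57) and Pla2r1 (-1.55) were lower in liver and Mrc1 was not called, and 1 of the 4 was lower after scaling. Of 6 genes of Fc receptors for IgG and their shared gamma chain, Fcer1g (-2.64), the gamma chain, and Fcgr3 (-1.92) were lower. The other 4, Fcgr2b included, were not called. After scaling 2 of the 6 were higher and 1 lower.

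Of 7 tested genes of hyaluronan binding and turnover, Stab2 was higher in liver than in lung and 4 were lower, near the 55.5% of all genes. Among the 4 were Cd44 (-3.56) and Tmem2 (-3.28), a cell surface hyaluronidase. After median-of-ratios scaling 2 were higher and 3 lower, against 17.9% and 19.4% of all genes. Hyal1, a lysosomal hyaluronidase, was higher in liver against the other 3 tissues (1.35), with Stab2. Lyve1, Cd44 (-1.40), Tmem2 (-1.18) and Hmmr (-1.04) were lower there, as were 32.7% of all genes. After scaling none of the 7 was lower in that comparison and 2 were higher. Among the chemokines and their receptors Cxcl12 (1.18) was higher in that comparison, with Gpr182, and Ackr3 (-2.94) lower. Hyal1, Cxcl12 and Hmmr were also named after their values were seen. All 9 tested VEGF receptor and ligand genes were lower in liver, from Vegfd (-3.52), Flt1 (-3.38) and Kdr (-2.85) to Flt4 (-1.34), the smallest difference of the 9 as deposited, and 4 of the 9 after scaling. Kdr is also among the 12 pan-endothelial genes. Of the atypical chemokine receptors and their chemokines, Ackr3 (-3.75), Cxcl13 (-3.65), Ackr2 (-2.99) and Ackr4 (-1.04) were lower, and the remaining 4, with Gpr182, were not called. Scaling left 3 lower and 1 higher. Of 5 DNases, Dnase1l3 was higher and Dnase1l1 (-2.41) and Dnase1l2 (-1.85) lower, and after scaling Dnase1l3 alone was called. In these families Pla2r1, Nrp2, Ackr2 and Ackr4 passed the filter through lung alone, as did Erg, Tmem100 and Prx in the endothelial lists, and their lower calls in liver are descriptions for that reason.

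Gata4, a transcription factor known to set the sinusoidal identity of liver endothelium, was the 1 gene of 6 sinusoidal transcription factors that was higher in liver than in lung (1.31, limma adjusted p = 0.000207). Its level was far higher in small intestine, at 25.6 and 25.2 FPKM against 1.84 and 2.41 in liver, 0.262 and 0.247 in lung and at most 0.0239 in kidney, and against the mean of the other tissues it was not called (-0.05). Sox18 (-4.52) and Erg (-3.42), factors of endothelial cells in general, were lower, and after median-of-ratios scaling the same 3 genes were called, at 2.01 for Gata4, -3.04 for Sox18 and -2.35 for Erg. Of 4 tested genes for signals that the sinusoid sends to hepatocytes, Bmp6 (-3.94) and Wnt2 (-1.22) were lower as deposited and Rspo3 (0.75) and Bmp2 (0.58) not called. After scaling 2 were higher and 1 lower (17.9% and 19.4% of all genes). Rspo3 passed the filter through liver alone, which fixed its direction, so a higher call of Rspo3 is a description.

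Genes were also ranked by how closely their profiles over the 8 libraries followed those of Stab2, Lyve1 and Flt4, as the root mean square difference of log2(FPKM + 1) after subtracting each gene's mean. The nearest to Stab2 were Gm7463 (0.10), Gm42604 (0.12) and Inca1 (0.14), and its nearest among the 10 was Oit3 (0.68). The nearest to Lyve1 were Hopx (0.45), Ear2 (0.50) and Fendrr (0.52), all farther off than the matches of Stab2 were, and its nearest among the 10 was Stab1 (1.64). The nearest to Flt4 were Cnr2 (0.11), Phlpp1 (0.12) and Ripk2 (0.13), with Stab1 (0.36) nearest among the 10. With 8 libraries of 4 tissues these are descriptions of likeness only.

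The exons of the 10 genes overlapped those of other genes over at most 5.93% of their length, the highest being Clec4g with Gm16553 on the other strand. The library method did not mark strand, so reads of such overlaps cannot be told apart. In kidney the replicates were unequal: Stab1 was at 220 and 53 reads there, and the 12 pan-endothelial genes were lower in kidney replicate 2 in sum, so a kidney level rests on 2 unequal values.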

How the data were processed

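The 8 libraries were made from bulk RNA of 4 mouse tissues, 2 for each tissue. Poly(A) RNA was converted to unstranded cDNA libraries by tagmentation. By the methods and labels, the authors selected reads by index with bbduk, mapped them to the mouse genome with STAR 2.5.3a and deposited FPKM values from the fpkm function of DESeq2 for 52195 genes; the read counter is not given in the sources used here. Low FPKM values are whole multiples of 1 read's worth, from which read numbers were worked out with exon lengths of GENCODE M21 (99.3% of symbols matched); 94.5% to 96.1% of values under 50 reads were whole within 0.02 reads. Fewer than 3 reads were taken as not detectable, which covers counting error only.

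The test took the 16328 genes that reached an FPKM of 1 in 2 libraries or more and was run on log2(FPKM + 1) with limma 3.58.1 (eBayes with trend) in R 4.3.3, with tissue as the only term and Benjamini-Hochberg adjustment over all genes tested. A call needed an adjusted p under 0.05 and an absolute difference over 1. The pseudocount understates changes of low genes. Single genes were also compared by exact permutation with numpy 2.4.6. Scripts were tested on simulated data. The alternatives were a pseudocount of 0.1, other filters, median-of-ratios and quantile scaling, scaling to 12 pan-endothelial genes, eBayes without trend, a replicate block, each library left out, and limma-voom on recovered reads, the last chosen after seeing the data. Named besides the 10 genes were up to 4 genes per list with the largest difference between liver and lung, genes called against their list, the 3 nearest profiles and tissue check genes. The members and lists were chosen with earlier results of these data known.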

Additional observations from a re-analysis of the deposited data

How the results depend on the processing

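The scaling between libraries decided most of what changed, and the cause was not tested. The higher call of Dnase1l3 in liver against lung held in every alternative, though at the filter of 5 FPKM it passed through liver alone, which fixed its direction there. So did those of Stab2, Clec4g and Oit3 where tested, but the filter had fixed their direction. The number called lower in liver than in lung, 3 as deposited, was 4 with a pseudocount of 0.1 and with limma-voom on the recovered reads (Gpr182 joined, with 65.4% and 64.8% of all genes lower), 1 under median-of-ratios scaling, quantile normalization and voom with median-of-ratios, and 0 when scaled to the pan-endothelial list, where the number called higher went from 4 to 9. In liver against the other tissues the 1 lower call (Lyve1) became 0 with a pseudocount of 0.1, all 3 of these scalings and both voom fits. In lung against kidney and small intestine the 6 higher calls became 8 with a pseudocount of 0.1 and with voom (45.0% and 46.6% of all genes), 5 by median-of-ratios and 4 by quantile normalization, and scaling to the pan-endothelial list left 1 higher call of 6 and gave 3 lower calls in place of 0. Both liver libraries exceeded all others for 4 genes as deposited, 7 by median-of-ratios and 8 by the pan-endothelial scale.

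Signs turned as follows, in log2 units, where the difference was called under at least 1 of the settings compared. Scaled to the pan-endothelial list, liver against lung gave 1.81 for Stab1, 3.22 for Fcgr2b, 2.80 for Gpr182, 2.84 for Mrc1 and 1.32 for Flt4. For Fcgr2b it gave 1.05 by median-of-ratios and 1.19 by voom with it. Liver against the others gave 1.09 for Stab1 and 0.35 for Lyve1 on the pan-endothelial scale, and by voom with median-of-ratios 0.44 for Lyve1 and 1.12 for Flt4. With no call under either setting, the signs of Stab1 (0.63) and Flt4 (0.51) in that comparison also turned by median-of-ratios, among others. On the pan-endothelial scale, lung against kidney and small intestine gave -1.07 for Stab1, -1.89 for Fcgr2b, -1.71 for Dnase1l3, -0.12 for Gpr182, -0.40 for Mrc1 and -0.53 for Flt4.

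Leaving out single libraries, the counts ranged from 5 to 6 higher in liver against the others and from 3 to 4 lower in liver against lung, where Gpr182 passed without liver replicate 1 (-1.01) or lung replicate 1 (-1.04). In liver against kidney they ranged from 7 to 8. With a replicate block the counts were those as deposited (4 higher and 3 lower in liver against lung). Same-numbered libraries did not deviate together (correlations from -0.217 to 0.0528), so the numbers were not taken as pairs. With 2 libraries per tissue, p-values measure the spread between these samples only.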
